A study of Mus musculus with 4 samples.

Results

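Lymphocytes that circulate without an ongoing immune response still make messenger RNA for several signalling proteins. Lymphotoxin beta (Ltb) anchors lymphotoxin alpha (Lta) to the cell surface, and this complex acts on stromal cells that build and keep up lymph nodes and spleen. Tumour necrosis factor (Tnf) and Lta are inflammatory relatives of Ltb. Macrophage migration inhibitory factor (Mif) is stored in the cell and released on demand, Il16 is cut from a larger precursor and attracts CD4+ cells, transforming growth factor beta 1 (Tgfb1) is secreted in a latent form and restrains lymphocytes, and Flt3l feeds the growth of dendritic cells and early progenitors.

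These 7 genes (Mif, Ltb, Lta, Tnf, Tgfb1, Il16 and Flt3l) were taken by name from a table of 15093 genes, and all 7 were present. The table holds 5794 blood mononuclear cells from 4 wild-type C57BL/6 mice, all of them anaesthetized. The study describes its mice as female and aged 3.2 ± 0.3 months, and gives no separate sex or age for these 4. The 2 treated mice, called treated mouse 1 and treated mouse 2, had been irradiated on the left ear for 10 min with non-thermal plasma (NTP, an ionised argon gas at near room temperature), and the 2 untreated mice, untreated mouse 1 and untreated mouse 2, received anaesthesia alone. Blood was drawn 120 min after the irradiation or the onset of anaesthesia, and the question asked of each gene was whether its level in a given cell type differed between treated and untreated animals. Each mouse gave a single library, so n = 2 mice per group throughout, and no animal was sampled again.

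The libraries held 1524 and 1705 cells in treated mice, against 993 and 1572 cells in untreated mice, with medians of 4480.5 and 3655 unique molecular identifiers (UMIs, each standing for a captured transcript) per cell in treated mice, against 4465 and 3104.5 in untreated mice. The second mouse of each group was therefore the shallower. Levels are given in CPM, the UMIs of a gene per 1000000 UMIs of the same cell type in the same mouse. Transcripts were counted at their 3′ end, so no scaling by transcript length was applied. The libraries shared 4 cell barcodes. The authors' cell type labels were set against marker genes. Cd79a was found in 98.9% of B cells and Cd3d in 91.1% of CD4+ T cells and 95.8% of CD8+ T cells. Cells labelled NK cells had Cd3d in 98.6% and Cd8b1 in 74.0% of cells but Ncr1, a defining NK receptor, in only 1.37%, and cells labelled plasmablasts had Cd79a in 99.2% and 0 UMIs of Jchain, the joining chain of secreted antibody. The 5 NK markers summed to 1088 and 579 CPM in cells labelled NK of treated mice, against 512 and 530 CPM in untreated mice. In CD8+ T cells they summed to between 237 and 300 CPM. Of 5 plasma cell markers, Jchain alone was at 0 UMIs in plasmablasts. They summed there to 234 and 193 CPM in treated mice, against 225 and 212 CPM in untreated mice. In B cells they summed to between 176 and 228 CPM. The names NK cells and plasmablasts are kept here as labels only, and the 13 to 22 cells per mouse labelled NK were not tested.

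Ltb, Tnf and Lta lie side by side within 10913 bases of mouse chromosome 17 (build GRCm38), at chr17:35194439-35196320 on the plus strand, chr17:35199381-35202007 on the minus strand and chr17:35203165-35205351 on the minus strand. Mif is at chr10:75859353-75860240 on the minus strand. Chromosome 7 carries Tgfb1 at chr7:25687002-25705077 on the plus strand, Flt3l at chr7:45129788-45136432 on the minus strand and Il16 at chr7:83642825-83745726 on the minus strand. In GENCODE vM21, Flt3l is overlapped on its own strand by the read-through gene Gm45713, Il16 overlaps Stard5 on the other strand, and Mif has 2 processed pseudogene copies elsewhere, so reads of these genes could in part be assigned differently by another annotation.

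The promoters of the 3 neighbours on chromosome 17 are shown because these genes lie close together and differed widely in level. Each run below holds 250 bases before and 50 bases after the start (RefSeq, GRCm38.p6). Capitals mark matches on either strand to the NF-kB consensus site, TATAAA and GGGCGG, none of which overlapped another. The CRE motif (cyclic AMP response element) was also searched and had 0 matches in each of these windows. The Ltb window is chr17:35194257-35194556 on the plus strand, the Lta window chr17:35205302-35205601 and the Tnf window chr17:35201958-35202257, both on the minus strand.
Ltb: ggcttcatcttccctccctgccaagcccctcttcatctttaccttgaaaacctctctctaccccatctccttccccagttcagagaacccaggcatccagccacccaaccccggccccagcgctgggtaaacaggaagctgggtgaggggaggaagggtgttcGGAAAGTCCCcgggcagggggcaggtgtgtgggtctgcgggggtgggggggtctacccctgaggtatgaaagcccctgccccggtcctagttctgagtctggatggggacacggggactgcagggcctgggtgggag
Lta: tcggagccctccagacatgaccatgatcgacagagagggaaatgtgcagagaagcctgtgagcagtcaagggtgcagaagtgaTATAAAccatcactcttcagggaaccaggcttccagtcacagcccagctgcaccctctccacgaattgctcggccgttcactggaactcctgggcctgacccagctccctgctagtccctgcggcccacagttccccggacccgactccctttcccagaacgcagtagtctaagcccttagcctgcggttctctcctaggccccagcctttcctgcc
Tnf: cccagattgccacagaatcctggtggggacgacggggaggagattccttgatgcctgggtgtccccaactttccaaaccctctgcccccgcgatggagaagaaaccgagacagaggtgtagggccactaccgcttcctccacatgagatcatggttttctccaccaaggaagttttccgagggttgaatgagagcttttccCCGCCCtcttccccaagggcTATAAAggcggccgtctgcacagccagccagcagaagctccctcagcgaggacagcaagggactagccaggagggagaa
The Ltb window had a single NF-kB match on the minus strand at position -87 from the start, as found in 4.50% of all 32817 promoter windows of the same length. TATAAA stood at position -29 in Tnf and at position -167 in Lta, and a TATAAA match on either strand was present in 13.6% of all windows. The Tnf window also had a GGGCGG match on the minus strand at position -49, against 35.6% of all windows with such a match. A match describes letters and not a bound factor.

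The study concerns miR-223-3p and other microRNAs, which lower the output of transcripts that pair with their seed, bases 2 to 8. The mature sequences with matches in the members are shown with the seed in capitals (RefSeq, GRCm38.p6).
mmu-miR-223-3p: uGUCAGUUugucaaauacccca
mmu-miR-451a: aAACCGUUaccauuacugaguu
mmu-miR-144-5p: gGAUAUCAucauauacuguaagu
In the longest coding transcript of each gene (GENCODE vM21), the match to the miR-223-3p seed, AACTGAC, was found in 2 of the 7 members and in 14.8% of all 21877 coding genes. It lay in the coding part of exon 2 of Ltb at chr17:35195325-35195331 and in the 3′ UTR in exon 8 of Flt3l at chr7:45131537-45131543. The match to the miR-451a seed, AACGGTT, was present in 4.21% of all genes and, among members, in the coding part of exon 3 of Mif at chr10:75859491-75859497. The match to the miR-144-5p seed, TGATATC, was present in 12.4% of genes and lay in the coding part of exon 14 of Il16. Matches to miR-142a-5p and miR-144-3p were found in 0 of the 7 members. The transcript stretches are given with the match in capitals.
Ltb, miR-223-3p match: ggggaaccagaAACTGACctcaaccctga
Flt3l, miR-223-3p match: tatgttgcccaAACTGACtttgaaaacct
Mif, miR-451a match: acgtgggctggAACGGTTccaccttcgct
Il16, miR-144-5p match: gactatagcttTGATATCactgctgaaga
No microRNA was measured in these libraries, and whether any match is used in lymphocytes was not tested.

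The 7 genes covered a wide range of levels. Ltb was ranked 173 of 15093 genes by UMIs, with 14065 UMIs in all cells, and at least 1 UMI in 4783 of 5794 cells, 82.6% (Wilson 95% interval 81.6 to 83.5%). Mif followed with 4183 UMIs in 45.3% of cells (43.98 to 46.5%), Tgfb1 with 1964 UMIs in 25.7% (24.6 to 26.8%), Il16 with 1672 UMIs in 23.3% (22.2 to 24.4%) and Flt3l with 408 UMIs in 6.39% (5.78 to 7.04%). Lta gave 87 UMIs in 85 cells, 1.47% (1.19 to 1.81%), and Tnf gave 41 UMIs in 37 cells, 0.639% (0.464 to 0.879%). No cell held more than 2 UMIs of Lta or of Tnf, whereas single cells reached 17 UMIs of Ltb and 11 UMIs of Mif. The intervals cover counting error only.

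Of 55 other cytokine genes listed, 35 were in the table, and 0 of them had more UMIs than Ltb. Hmgb1, a nuclear protein that acts as an alarm signal when released, had 13328 UMIs, and it was the only listed gene above Mif. The chemokine gene Ccl5 had 2030 UMIs and reached 3177 CPM in the cells labelled NK. Il12a had 894 UMIs, Tnfsf8 742 UMIs and Cd40lg 528 UMIs. Lta exceeded 27 of the 35 genes and Tnf exceeded 22, and Il4 had 0 UMIs.

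Ltb was present in every labelled cell type. In B cells its level was 649 and 688 CPM in treated mice, against 543 and 598 CPM in untreated mice. The CD4+ T cell level was 597 and 632 CPM in treated mice, against 523 and 550 CPM in untreated mice. In CD8+ T cells it was 540 and 578 CPM in treated mice, against 385 and 444 CPM in untreated mice. Both treated mice lay above both untreated mice in these 3 types. In plasmablasts the values overlapped, with 690 and 598 CPM in treated mice, against 758 and 589 CPM in untreated mice. Cells labelled NK had 453 and 341 CPM in treated mice, against 485 and 377 CPM in untreated mice. Averaged over the 4 mice, Ltb ran from 659 CPM in plasmablasts through 619 CPM in B cells, 576 CPM in CD4+ T cells and 487 CPM in CD8+ T cells to 414 CPM in cells labelled NK, and each neighbouring pair in this order overlapped over mice. Cells labelled NK, at 341 to 485 CPM, lay below plasmablasts, B cells and CD4+ T cells without overlap. Plasmablasts, at 589 to 758 CPM, also lay above CD8+ T cells, at 385 to 578 CPM.

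Mif ran highest in cells labelled NK and in CD8+ T cells and lowest in B cells. In cells labelled NK it was 233 and 352 CPM in treated mice, against 269 and 332 CPM in untreated mice. In CD8+ T cells it was 274 and 250 CPM in treated mice, against 204 and 280 CPM in untreated mice. The CD4+ T cell level was 186 and 214 CPM in treated mice, against 178 and 233 CPM in untreated mice. The groups overlapped in all 3. In plasmablasts Mif was 168 and 161 CPM in treated mice, against 154 and 127 CPM in untreated mice. This was the single type in which treated mice lay above untreated mice. Thinned to 2000 UMIs per cell, Mif there was 183 and 145 CPM in treated mice, against 176 and 139 CPM in untreated mice, an overlap. In B cells it was 134 and 149 CPM in treated mice, against 109 and 140 CPM in untreated mice. In the order of means, the gap between CD4+ T cells (203 CPM) and plasmablasts (152 CPM) was the one at which mice of neighbouring types did not overlap. The share of cells with a Mif UMI was 69.5% in CD8+ T cells (median depth 5556 UMIs) and 34.6% in B cells (median depth 3364 UMIs). After every cell was thinned to 2000 UMIs, which left out 2 CD8+ T cells and 224 B cells, these shares were 38.8% and 23.6%.

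Tgfb1 separated B lineage cells from the rest. In plasmablasts it was 174 and 173 CPM in treated mice, against 197 and 188 CPM in untreated mice. In B cells it was 106 and 108 CPM in treated mice, against 116 and 121 CPM in untreated mice. Treated mice lay below untreated mice in both. In CD4+ T cells it was 34.1 and 37.3 CPM in treated mice, against 44.7 and 38.0 CPM in untreated mice, again with treated mice below. In CD8+ T cells it was 46.6 and 36.9 CPM in treated mice, against 36.3 and 35.2 CPM in untreated mice, with treated mice above. Cells labelled NK had 4 to 6 UMIs per mouse, 37.7 and 45.4 CPM in treated mice, against 26.9 and 35.9 CPM in untreated mice. After thinning to the same depth as for Mif, treated mice stayed below untreated mice in B cells. The groups then overlapped in plasmablasts, CD4+ T cells, CD8+ T cells and cells labelled NK. Thinned plasmablasts had 151 and 210 CPM in treated mice, against 232 and 145 CPM in untreated mice. Over the 4 mice, plasmablasts (183 CPM) exceeded B cells (113 CPM) by 1.62-fold and B cells exceeded CD8+ T cells (38.8 CPM) by 2.91-fold without overlap between mice, while CD8+ T cells, CD4+ T cells (38.5 CPM) and cells labelled NK (36.5 CPM) overlapped.

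Il16 was detected in all 5 labelled types within a narrow range of levels. It was 65.1 and 78.5 CPM in B cells of treated mice, against 74.8 and 78.0 CPM in untreated mice. CD4+ T cells had 62.5 and 73.4 CPM in treated mice, against 61.5 and 81.3 CPM in untreated mice. Treated and untreated mice overlapped in both. CD8+ T cells had the lowest level, 53.5 and 48.6 CPM in treated mice, against 60.5 and 54.5 CPM in untreated mice, and treated mice lay below. Plasmablasts had the highest, 97.5 and 90.3 CPM in treated mice, against 82.2 and 92.4 CPM in untreated mice. Cells labelled NK had 69.2 and 68.1 CPM in treated mice, against 60.6 and 62.8 CPM in untreated mice, from 6 to 11 UMIs each. Plasmablasts did not overlap with B cells, nor cells labelled NK with CD8+ T cells, and the pairs between them in the order overlapped.

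Flt3l was a gene of CD4+ T cells and cells labelled NK more than of B cells. CD4+ T cells had 33.6 and 27.5 CPM in treated mice, against 33.7 and 25.8 CPM in untreated mice. Cells labelled NK had 25.1 and 34.1 CPM in treated mice, against 20.2 and 35.9 CPM in untreated mice, from 3 or 4 UMIs each. CD8+ T cells had 8.23 and 15.3 CPM in treated mice, against 13.6 and 11.4 CPM in untreated mice. The groups overlapped in all 3 types. Plasmablasts had 22.0 and 10.0 CPM in treated mice, against 25.0 and 10.3 CPM in untreated mice. B cells had 10.1 and 12.6 CPM in treated mice, against 10.9 and 5.81 CPM in untreated mice. The Flt3l level of B cells was 33.1% of that of CD4+ T cells when the 4 mice were pooled.

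Lta and Tnf were at the edge of detection, and their UMIs are given as counts. Lta had 13 and 19 UMIs in B cells of treated mice, against 5 and 14 UMIs in untreated mice. CD4+ T cells had 13 and 3 Lta UMIs in treated mice, against 2 and 4 UMIs in untreated mice, so most of the treated sum came from treated mouse 1. CD8+ T cells had 1 and 2 Lta UMIs in treated mice, against 2 and 1 UMIs in untreated mice, and plasmablasts had 2 and 5 UMIs in treated mice, against 1 and 0 UMIs in untreated mice. Cells labelled NK had 0 Lta UMIs in 73 cells, which allows up to 4.11% of cells with a UMI and up to 5.92 CPM. Tnf had 5 and 3 UMIs in B cells of treated mice, against 1 and 8 UMIs in untreated mice. CD4+ T cells had 1 and 7 Tnf UMIs in treated mice, against 4 and 6 UMIs in untreated mice. The Tnf counts were 0 and 2 UMIs in CD8+ T cells of treated mice, against 0 and 0 UMIs in untreated mice. Plasmablasts had 0 and 1 Tnf UMIs in treated mice, against 0 and 1 UMIs in untreated mice, and cells labelled NK had 0 and 2 UMIs in treated mice, against 0 and 0 UMIs in untreated mice. For comparison, Cd79a, which T cells should lack, had a UMI in 2.70% of CD4+ T cells (median depth 4429 UMIs), and Cd3d had a UMI in 0.703% of B cells (median depth 3364 UMIs), and these shares outside a gene's own cell type are given as a background whose source was not tested. Such shares move with the abundance of a gene, and Ighm, the heavy chain of IgM, had a UMI in 41.0% of CD4+ T cells. Lta had a UMI in 1.45% of CD4+ T cells and Tnf in 1.05% of CD4+ T cells and 0.511% of B cells, all below the Cd79a or Cd3d share of the same type, and these are not read as expression. Lta in B cells, with a UMI in 1.60% of cells, was above the Cd3d share.

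**Figure D1:**
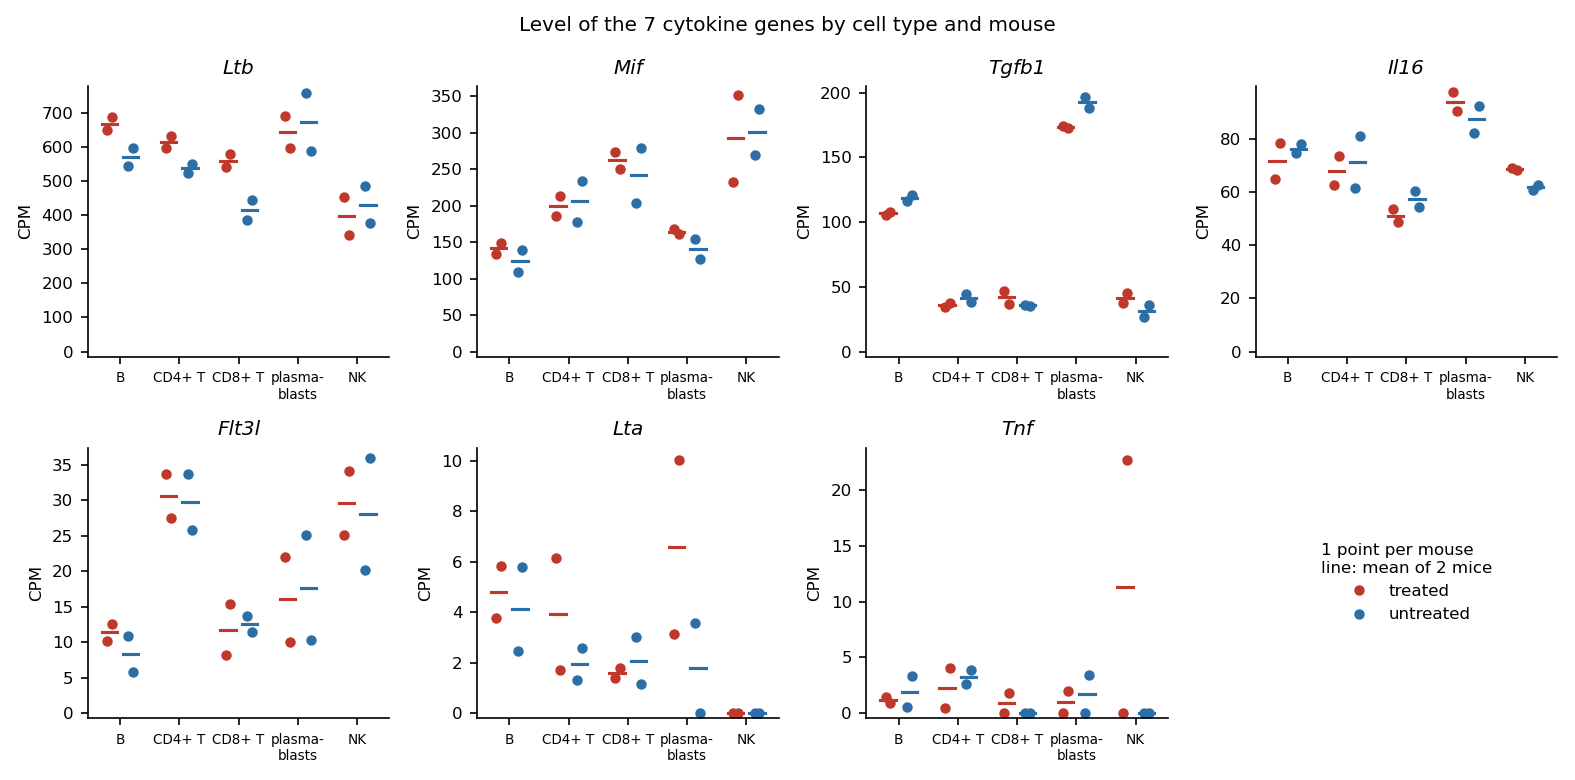
CPM (linear axis) of each of the 7 genes in the 5 labelled cell types, with treated mice in red on the left and untreated mice in blue on the right, 1 point per mouse and a line at the mean of 2 mice. Ltb of treated mice lies above that of untreated mice in B, CD4+ T and CD8+ T cells, and Tgfb1 stands at 106 to 197 CPM in B cells and plasmablasts and at 26.9 to 46.6 CPM in the other 3 types.

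Treatment was tested on UMI sums per mouse with edgeR's quasi-likelihood test, with p-values adjusted over all genes tested by the Benjamini-Hochberg method and a threshold of 0.05. After the filter on low counts, 6 members were tested in B cells (all but Tnf), 5 in CD4+ T cells and 5 in CD8+ T cells (all but Lta and Tnf), and 4 in plasmablasts (Flt3l also dropped out). No member passed the threshold. In B cells 0 of 6 members were called, where the test called 0% of 9903 genes (0 genes, and 460 genes at an unadjusted p under 0.05). Of the 5 members tested in CD4+ T cells 0 were called, where it called 0% of 8680 genes (0 genes, and 415 at an unadjusted p under 0.05). In CD8+ T cells 0 of 5 members were called, where it called 0.0294% of 6798 genes (574 at an unadjusted p under 0.05), and in plasmablasts 0 of 4, where it called 0.0186% of 5372 genes (363 at an unadjusted p under 0.05). DESeq2 and limma-voom also called 0 members in each type. At an unadjusted p under 0.05 the members held 0 genes in plasmablasts and 1 gene in each of the other 3 types, and in each case that gene was Ltb.

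Ltb had the largest treatment contrast of the members by p-value. In CD8+ T cells its log2 fold change (treated over untreated) was 0.52 (SE 0.13, 95% interval 0.27 to 0.78), with an unadjusted edgeR p of 0.000190 and an adjusted p of 0.258, and 4 of 6798 genes had a smaller p. In B cells it was 0.26 (SE 0.10, interval 0.05 to 0.48), with an adjusted edgeR p of 0.934, and in CD4+ T cells 0.25 (SE 0.09, interval 0.05 to 0.45), with an adjusted edgeR p of 0.904. In plasmablasts it was -0.03 (SE 0.16, interval -0.35 to 0.30). The estimate in CD8+ T cells stayed between 0.43 and 0.62 over 12 alternatives, and the adjusted p between 0.0544 and 1.

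Ltb is a short gene, and the median contrast of short genes was above 0 in all 4 tested types. The 308 tested genes spanning under 3000 bases had a median log2 fold change of 0.21 in CD8+ T cells, against 0.01 for all tested genes with a known span, and 24.0% of them had an unadjusted p under 0.05, against 8.44% of all genes tested. The median of short genes was 0.15 in plasmablasts (261 genes), 0.11 in CD4+ T cells (409 genes) and 0.11 in B cells (523 genes). Mif, Ltb, Lta and Tnf all span under 3000 bases, with 888 bases for Mif and 1882 bases for Ltb. The part of this length-related shift in the Ltb contrast was not tested.

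The other contrasts had intervals that included 0. Mif had log2 fold changes of 0.27 (SE 0.21) in plasmablasts, 0.19 (SE 0.15) in CD8+ T cells, 0.01 (SE 0.14) in CD4+ T cells and 0.22 (SE 0.13) in B cells. The CD4+ value turned to -0.04 when the plain UMI total set the library size. Tgfb1 had -0.12 (SE 0.12) in B cells, -0.17 (SE 0.18) in CD4+ T cells and -0.12 (SE 0.19) in plasmablasts but 0.30 (SE 0.29) in CD8+ T cells. Il16 had 0.14 (SE 0.26) in plasmablasts, -0.08 (SE 0.24) in CD8+ T cells, -0.03 (SE 0.17) in CD4+ T cells and -0.06 (SE 0.14) in B cells. Flt3l had 0.50 in B cells (SE 0.34, interval -0.22 to 1.23), 0.10 in CD8+ T cells (SE 0.50) and 0.10 in CD4+ T cells (SE 0.22). Lta, tested in B cells alone, had 0.20 (SE 0.52, interval -0.90 to 1.30). The lowest adjusted edgeR p among these contrasts was 0.775, for Mif in CD8+ T cells.

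**Figure D2:**
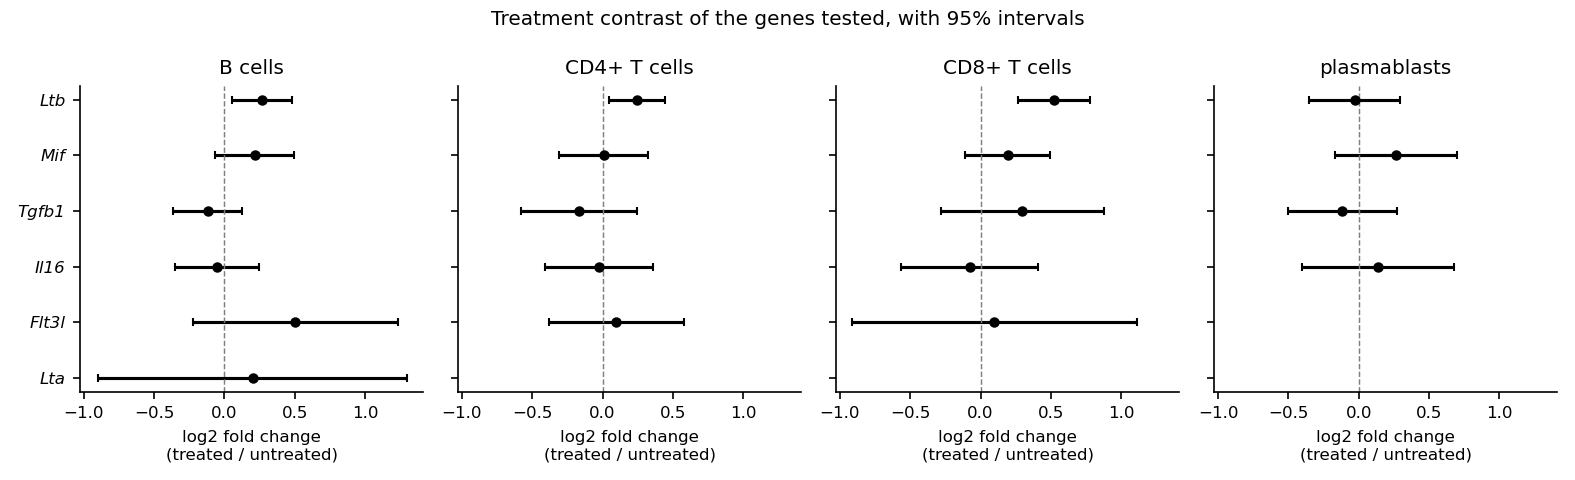
Log2 fold change of treated over untreated mice for each member tested (points) with the 95% interval of edgeR's test (bars), in 4 cell types. The interval of Ltb lies above 0 in B, CD4+ T and CD8+ T cells, from 0.27 to 0.78 in the last, and the intervals of all other members include 0.

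By plain CPM, the groups did not overlap for 2 of 6 tested members in B cells, where 34.6% of all tested genes did not overlap, and for 2 of 5 in CD4+ T cells, against 35.3% of all genes. They did not overlap for 3 of 5 members in CD8+ T cells, against 38.7% of all genes, and for 2 of 4 in plasmablasts, against 36.8%. With 2 mice per group, no two-sided exact permutation test of a single value can give a p under 0.33.

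A single edgeR model with a term for each mouse set the contrast in B cells against that in CD4+ T cells. It called 0 of 6 members, where it called 0.00986% of 10143 genes. Ltb differed by 0.02 (SE 0.10, adjusted p = 1 by edgeR) and Mif by 0.22 (SE 0.14, adjusted p = 1 by edgeR). For the other pairs of cell types, chosen after the data were seen, the Ltb effect in CD8+ T cells exceeded that in plasmablasts by 0.54 (SE 0.16, unadjusted p 0.000746, adjusted p = 0.400 by edgeR), and the CD4+ T cell effect minus the CD8+ T cell effect was -0.27 (SE 0.11, adjusted p = 0.875 by edgeR). No difference between cell types in a member passed the adjusted threshold.

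Within the authors' 12 clusters, the level of Ltb in the 4-mouse mean ran from 427 CPM in cluster 11 (NK label) to 763 CPM in cluster 9 (plasmablasts) and 757 CPM in cluster 1 (B cells). Of the 9 clusters with at least 20 cells in every mouse, treated mice lay above untreated mice without overlap in 6 for Ltb, in clusters 0, 1 and 2 (B cells), 3 and 5 (CD4+ T cells) and 4 (CD8+ T cells). Over all pairs of a gene and such a cluster with at least 15 UMIs, the same held for 16% of 71017 pairs. The clusters are parts of the cell types above, so these are the same cells counted in smaller groups. In cluster 1 Ltb was 762 and 838 CPM in treated mice, against 700 and 727 CPM in untreated mice. In cluster 5 it was 493 and 566 CPM in treated mice, against 436 and 458 CPM in untreated mice. When every mouse was given the same mix of clusters, the log2 ratio of mean CPM (treated over untreated) was 0.17 in B cells, against 0.23 without this step, and 0.18 in CD4+ T cells, against 0.20 without it.

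Mif showed no common direction over clusters, with treated mice above in cluster 1 (187 and 190 CPM in treated mice, against 108 and 150 CPM in untreated mice) and below in cluster 8, a CD4+ T cell cluster (142 and 147 CPM in treated mice, against 218 and 223 CPM in untreated mice). Among B cell clusters Mif was lowest in cluster 2, with 102 CPM in the 4-mouse mean, and among CD4+ T cell clusters it was highest in cluster 7, with 250 CPM. Tgfb1 differed between the plasmablast clusters. Cluster 6 had 180 and 177 CPM in treated mice, against 244 and 219 CPM in untreated mice. Cluster 9 had 142 and 169 CPM in treated mice, against 107 and 93.5 CPM in untreated mice. The cluster 9 values rest on 15 and 17 UMIs in treated mice, against 8 and 7 UMIs in untreated mice. Of the 9 larger clusters, Tgfb1 was higher in treated mice without overlap in 3 and lower in 4, against 16% and 17.6% of all pairs of a gene and a cluster. Il16 was lowest in cluster 10 (B cells, 31.5 CPM from 16 UMIs) and cluster 8 (41.0 CPM) and highest in cluster 6 (94.0 CPM). Flt3l was at 26.6 to 38.5 CPM in the 4 CD4+ T cell clusters and at 27.3 CPM in cluster 11, against 6.22 to 14.2 CPM in the B cell clusters and 12.2 CPM in cluster 4.

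**Figure D3:**
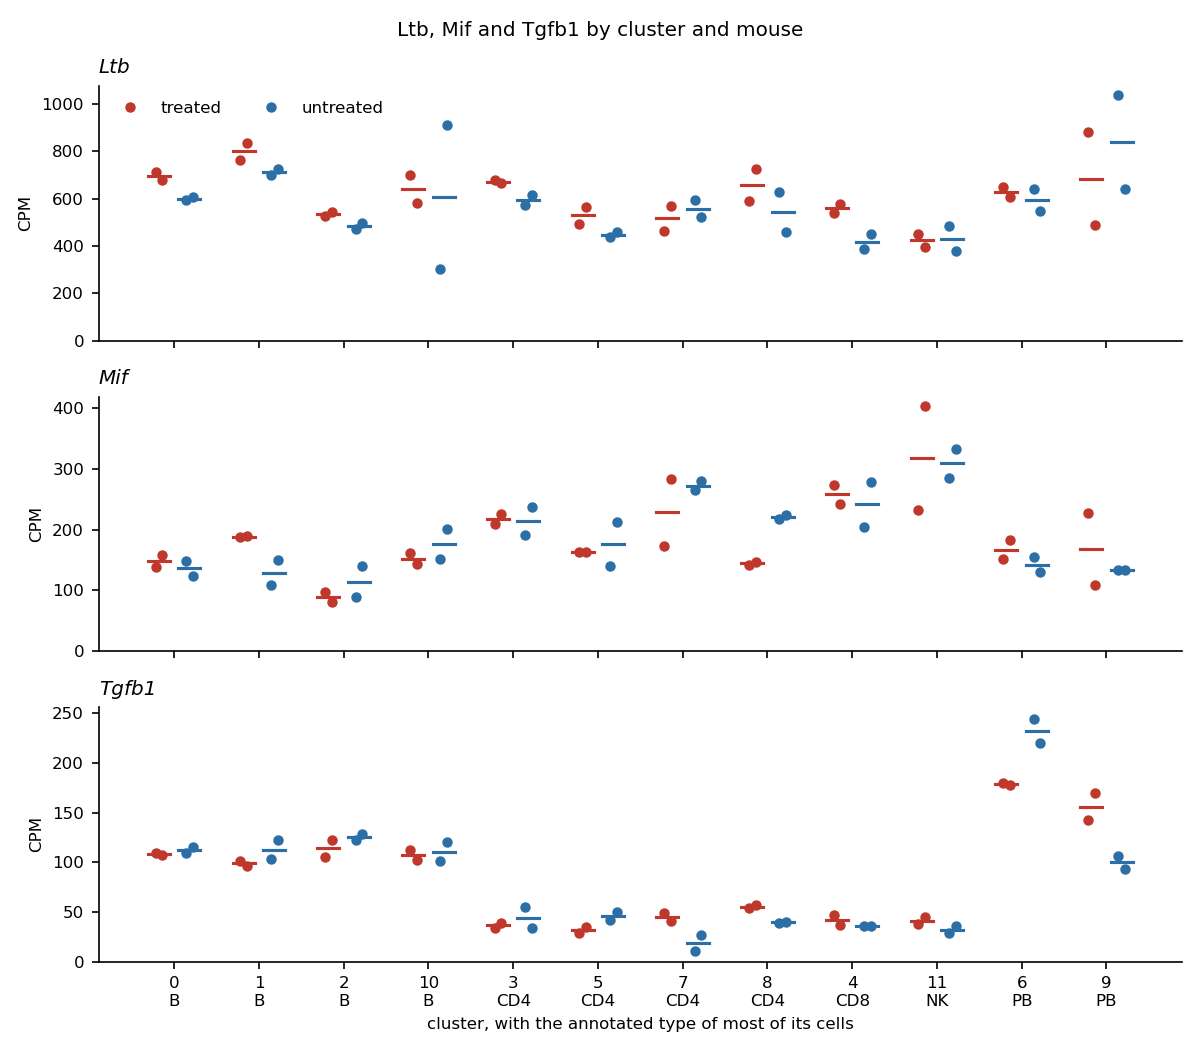
CPM (linear axis) of Ltb, Mif and Tgfb1 in the 12 clusters, ordered by the type most of their cells carry (B, CD4, CD8, NK, PB for plasmablasts), with treated mice in red on the left, untreated mice in blue on the right and lines at the means of 2 mice. Ltb of treated mice lies above that of untreated mice without overlap in clusters 0, 1, 2, 3, 4 and 5. Tgfb1 runs in opposite directions in clusters 6 and 9, with only 7 to 17 UMIs per mouse in cluster 9.

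The level of Ltb moved with the depth of the cell. When the cells of each mouse and type were split into 3 groups of equal number by UMIs, Ltb was higher in the shallowest than in the deepest group in 4 of 4 mice in each of these types, CD8+ T cells, CD4+ T cells and B cells. Its mean over mice was 566 CPM in the shallowest and 442 CPM in the deepest CD8+ T cells, 691 and 501 CPM in CD4+ T cells and 761 and 538 CPM in B cells. The depth groups were not split by cluster, and the B cell clusters differed in depth. Mean Ltb was 757 CPM in cluster 1 (median 2683 UMIs) and 648 CPM in cluster 0 (3269 UMIs). It was 510 CPM in cluster 2 (4244.5 UMIs) and 625 CPM in cluster 10 (4951 UMIs). The part of cluster in the trend with depth was not tested. In the middle group of CD8+ T cells Ltb was 558 and 574 CPM in treated mice, against 354 and 444 CPM in untreated mice. CD8+ T cells had medians of 6565 and 5534 UMIs in treated mice, against 6233 and 4761 UMIs in untreated mice. After thinning to 2000 UMIs per cell, the Ltb log2 fold change was 0.50 in CD8+ T cells, 0.32 in B cells and 0.19 in CD4+ T cells. Mif was higher in the shallowest group in 4 of 4 mice in CD4+ T cells, with means of 234 CPM in the shallowest and 187 CPM in the deepest group, and in 1 of 4 mice in CD8+ T cells. Tgfb1 in CD8+ T cells was higher in the shallowest group in 4 of 4 mice, with means of 43.0 CPM and 32.0 CPM in the deepest.

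**Figure D4:**
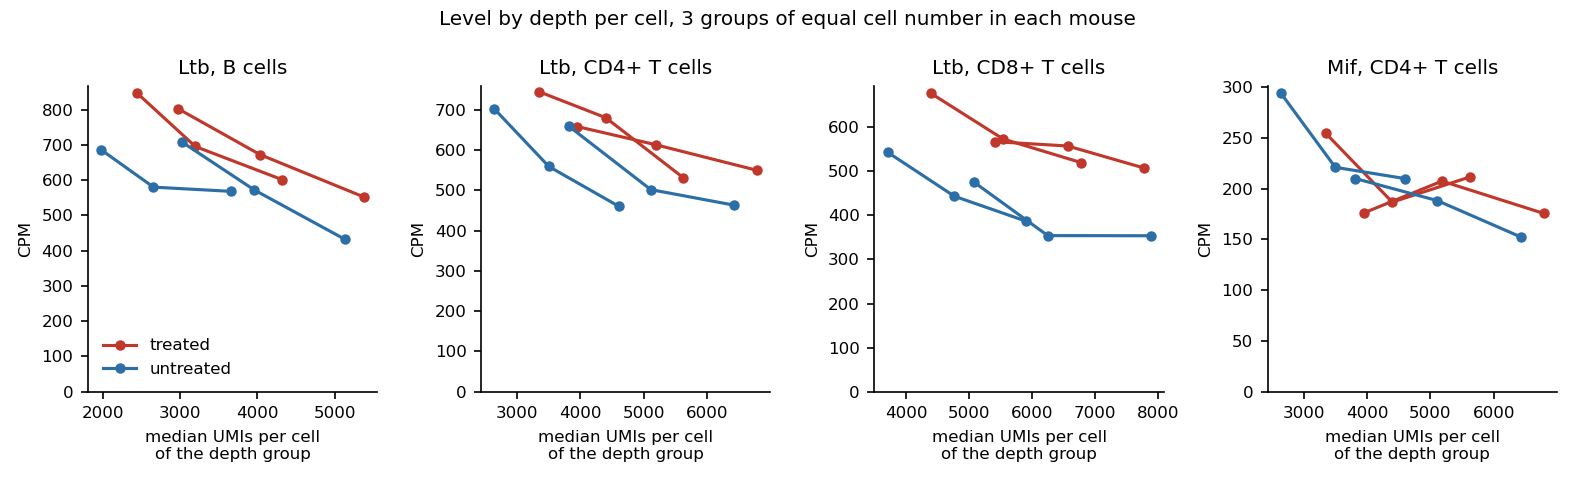
CPM of Ltb in B, CD4+ T and CD8+ T cells and of Mif in CD4+ T cells (linear axis) against the median UMIs per cell of 3 depth groups of equal cell number, with a line for each mouse, treated in red and untreated in blue. Each Ltb line ends lower at the deepest group than it starts, and in CD8+ T cells the treated lines run above the untreated ones at like depth.

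Platelets carry much Tgfb1 RNA and red cells carry globin RNA, so marker sums of both are given beside Tgfb1. The 6 platelet markers summed to 25.2 and 18.4 CPM in B cells of treated mice, against 21.8 and 11.6 CPM in untreated mice, and 0 of the 6 were without a UMI. In plasmablasts they summed to 33.0 and 4.01 CPM in treated mice, against 10.7 and 10.3 CPM in untreated mice, and in CD8+ T cells to 35.6 and 1.80 CPM in treated mice, against 1.51 and 0 CPM in untreated mice, with Pf4, Gp9, Gp1bb and Tubb1 at 0 UMIs there. The sums in CD4+ T cells were 11.8 and 1.72 CPM in treated mice, against 0.648 and 5.16 CPM in untreated mice. The 5 red cell markers summed to 113 and 32.1 CPM in plasmablasts of treated mice, against 3713 and 13.7 CPM in untreated mice, and to 115 and 20.6 CPM in B cells of treated mice, against 4.46 and 11.2 CPM in untreated mice. In CD8+ T cells these red cell sums were 50.7 and 0.900 CPM in treated mice, against 3.02 and 0 CPM in untreated mice. B cells with at least 1 UMI of a platelet, red cell, neutrophil or monocyte marker made up 28.8% and 16.7% in treated mice, against 17.9% and 16.1% in untreated mice. Of plasmablasts such cells made up 36.4% and 21.8% in treated mice, against 14.1% and 13.1% in untreated mice, without overlap. Without such cells the Tgfb1 log2 fold change was -0.17 in plasmablasts, 0.26 in CD8+ T cells, -0.24 in CD4+ T cells and -0.10 in B cells.

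Of 17 receptor and partner genes, 0 were called in any type, with 5 tested in plasmablasts, 8 in CD8+ T cells, 10 in CD4+ T cells and 8 in B cells, and their median log2 fold changes were between -0.07 and 0.06, against 0.00 to 0.01 for all genes. Cd74, the surface receptor of Mif and the invariant chain of MHC class II, was at 12036 and 11676 CPM in B cells of treated mice, against 10857 and 11150 CPM in untreated mice. Ltbr, the receptor of the Ltb complex, had 1 UMI in B cells and 1 UMI in CD4+ T cells over all mice. Tnfrsf1b, the receptor of Tnf and Lta with the highest level, stood at 12.7 CPM in CD8+ T cells and 10.8 CPM in B cells when mice were pooled. Tgfbr2, the ligand-binding receptor of Tgfb1, was at 405 and 392 CPM in CD4+ T cells of treated mice, against 466 and 452 CPM in untreated mice. Treated mice also lay below untreated mice in B cells, CD8+ T cells and cells labelled NK, and the groups overlapped in plasmablasts. Of all tested genes, 35.3% did not overlap in CD4+ T cells, 34.6% in B cells and 38.7% in CD8+ T cells. Cd4, which binds Il16, was at 144 and 134 CPM in CD4+ T cells of treated mice, against 139 and 145 CPM in untreated mice. Flt3, the receptor of Flt3l, reached 14.7 CPM in plasmablasts from 25 UMIs. By the rule of smallest p, Cd9, a tetraspanin described as a further Il16 receptor, stood at 22.6 and 18.1 CPM in B cells of treated mice, against 10.9 and 7.05 CPM in untreated mice, with a log2 fold change of 1.23 (SE 0.28, adjusted p = 0.765 by edgeR). Tgfbr3, a co-receptor for TGF-beta, had -0.22 (SE 0.12) and Cd44, the partner of Cd74, -0.43 (SE 0.24) in CD4+ T cells.

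Genes that process the cytokines or control their mRNA, 28 of 30 listed in the table, had 0 calls. Ddt, the close relative of Mif, was at 48.7 and 78.3 CPM in plasmablasts of treated mice, against 32.2 and 27.4 CPM in untreated mice, a log2 fold change of 1.10 (SE 0.42, adjusted p = 0.711 by edgeR), and its fold change was 0.69 (SE 0.29) in CD8+ T cells and 0.12 (SE 0.17) in B cells. Zc3h12a, a nuclease that cuts cytokine mRNA, had 0.48 (SE 0.21) in CD4+ T cells and -0.43 (SE 0.30) in CD8+ T cells. Itgav, an integrin chain that releases active TGF-beta, had -0.55 (SE 0.21) in CD4+ T cells, and the protease gene Adam10 had -0.51 (SE 0.25) in plasmablasts. Adam10 there was 123 and 124 CPM in treated mice, against 114 and 243 CPM in untreated mice, so the groups overlapped, and the fold change was 0.13 without untreated mouse 2.

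NF-kB is the transcription factor downstream of Tnf and lymphotoxin receptors. Of 25 listed target and pathway genes, 0 were called. Plasmablasts had 19 tested with a median log2 fold change of 0.05, CD8+ T cells 18 with 0.07, CD4+ T cells 21 with 0.05 and B cells 24 with -0.02. Nfkbia, which encodes the inhibitor that NF-kB itself induces, was at 262 and 274 CPM in CD8+ T cells of treated mice, against 193 and 195 CPM in untreated mice, with a log2 fold change of 0.56 (SE 0.15, adjusted p = 0.354 by edgeR). Its fold change was 0.35 (SE 0.10) in CD4+ T cells, 0.39 (SE 0.17) in plasmablasts and 0.16 (SE 0.10) in B cells. In CD4+ T cells, Nfkbib had 0.61 (SE 0.23), Map3k14, the kinase of the lymphotoxin branch, 0.35 (SE 0.16) and Traf3, which keeps that kinase low, -0.39 (SE 0.15). In B cells, CD8+ T cells and plasmablasts, in that order, Nfkbib had 0.18, 0.0021 and 0.18. In the same order Map3k14 had -0.20, -0.05 and 0.0018, and Traf3 had -0.15, -0.21 and 0.17. None of these passed the adjusted threshold.

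Of 24 TGF-beta target genes listed, 21 were in the table, and 16 were tested in each of B, CD4+ T and CD8+ T cells and 12 in plasmablasts, with 0 calls. In CD4+ T cells 13 of the 16 had negative fold changes with a median of -0.12, and in CD8+ T cells 11 of 16 with a median of -0.15, against 0.01 for all genes in both. The list was evenly split in B cells (8 of 16 negative, median 0.03) and in plasmablasts (6 of 12 negative, median 0.00045). Ldlrad4, an inhibitor of TGF-beta signalling, was at 175 and 177 CPM in CD4+ T cells of treated mice, against 225 and 214 CPM in untreated mice, a log2 fold change of -0.27 (SE 0.10, adjusted p = 0.904 by edgeR). Ski, a repressor of the same pathway, had -0.31 (SE 0.13) in CD4+ T cells, Smurf1 -0.45 (SE 0.25) in CD8+ T cells and Id3 0.26 (SE 0.13) in B cells.

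Among the other cytokines, Ccl5 passed the threshold in CD8+ T cells. This chemokine of cytotoxic cells was at 145 and 94.5 CPM in treated mice, against 9.07 and 51.1 CPM in untreated mice, a log2 fold change of 1.93 (SE 0.30, adjusted p = 0.000865 by edgeR). The call was lost with DESeq2 (2.07, adjusted p = 1) and with the plain UMI total (1.84, adjusted p = 0.0593 by edgeR), and the estimate was 1.30 without untreated mouse 1 and 3.74 without untreated mouse 2. In CD4+ T cells Ccl5 was at 8.53 and 4.59 CPM in treated mice, against 31.1 and 5.80 CPM in untreated mice. The groups overlapped, and the log2 fold change of -1.40 (SE 0.64) turned to 0.25 without untreated mouse 1. Tnfsf8 (CD30 ligand) stood at 28.8 and 49.5 CPM in CD8+ T cells of treated mice, against 65.0 and 76.1 CPM in untreated mice, with -0.70 (SE 0.25, adjusted p = 0.535 by edgeR). Cd40lg, the CD40 ligand of helper T cells, was at 71.1 and 59.1 CPM in CD4+ T cells of treated mice, against 93.3 and 84.5 CPM in untreated mice, with -0.39 (SE 0.14, adjusted p = 0.904 by edgeR). Vegfb had 0.54 (SE 0.33) in B cells.

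The genes whose level over the 12 clusters was most like that of a member were sought among 7770 other genes of at least 20 CPM in a cluster, by Pearson correlation of log2(CPM + 10) in the 4-mouse mean. The points share libraries and depth, and the correlations are descriptions. Mif was most like Hspa8 (0.96), a constitutive heat shock chaperone, Sec61b (0.93), a subunit of the secretory translocon, and Rnaset2a (0.93). Ltb was most like 1110008P14Rik (0.88), Coro1a (0.88), an actin-binding protein of leukocytes, and Pop7 (0.87). Tgfb1 was most like Myo1c (0.99), the B lineage transcription factor gene Spib (0.99) and the kinase gene Csk (0.99). Il16 was most like Slc25a51 (0.92), Ebag9 (0.91) and Oaz2 (0.90), and Flt3l was most like Thoc7 (0.89), Dap (0.89) and Chn2 (0.88). With Spearman's rank correlation 1 of these 3 genes stayed among the closest 3 for Mif and 0 for Ltb, Tgfb1, Il16 and Flt3l. Lta and Tnf did not reach 20 CPM in any cluster and were left out. Among members, the Pearson correlation was -0.76 for Mif with Tgfb1 and 0.58 for Ltb with Tgfb1.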

How the data were processed

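Peripheral blood mononuclear cells of 4 C57BL/6 mice (2 treated with NTP, 2 untreated) were analysed, and the miRNA samples of the study were not analysed here. The authors deposited raw UMI counts per gene and cell from 3′ droplet libraries mapped to mm10, and a table that gives the type, the cluster and the percent of mitochondrial counts of each cell. Cell Ranger 7.1.0 and Seurat 4.3.0 are credited in the processing notes of the submitters. The study's methods describe removal of ambient RNA and of doublets before clustering. The sources used here do not give whether the deposited counts precede or follow the ambient RNA step, and no doublet caller was run again. Of the 15093 genes, 66 had no count, and the total was 23692981 UMIs. All columns of values per sample were used.

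Counts were summed per mouse and labelled cell type (4653719 to 7093148 UMIs per mouse), filtered by edgeR's rule on low counts, scaled by TMM and tested with edgeR 4.0.16 in R 4.3.3 by the quasi-likelihood test, with Benjamini-Hochberg adjustment over all genes at 0.05. Only types with at least 20 cells in every mouse were tested. The scripts were tested on simulated data. The mouse is the replicate, and each library comes from a separate animal. DESeq2 1.42.0, limma 3.58.1, other scalings, no filter, leaving out each mouse, equal cell numbers, thinning to 2000 UMIs and removal of cells with markers of other cells were tried as alternatives. The 5 other pairs of cell types, the depth groups and the split by gene span were added after the data were seen. From each gene list up to 4 genes with the smallest unadjusted p over the tested types are named, and also the receptor of each member with the highest level and the 3 most similar genes. The members and lists were chosen with earlier results of these data known. The plan of the level comparison spoke of 1 cluster fewer than the 12 found in the deposited table, and all 12 were used.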

Additional observations from a re-analysis of the deposited data

Results flagged for a closer look

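Tgfb1 stood out because, at full depth, its groups separated in opposite directions in different cell types. Both treated mice lay below both untreated mice in B cells (106 and 108 CPM in treated mice, against 116 and 121 CPM in untreated mice), in CD4+ T cells and in plasmablasts, and above them in CD8+ T cells (46.6 and 36.9 CPM in treated mice, against 36.3 and 35.2 CPM in untreated mice). The tests of the difference in edgeR gave a treatment effect in B cells minus CD8+ T cells of -0.40 (SE 0.31, unadjusted p 0.191, adjusted p = 1), in CD4+ T cells minus CD8+ T cells of -0.45 (SE 0.35, unadjusted p 0.198, adjusted p = 0.970) and in CD8+ T cells minus plasmablasts of 0.41 (SE 0.36, unadjusted p 0.255, adjusted p = 1). None passed the threshold, and the CD8+ T cell values rest on 24 to 41 UMIs per mouse.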

How the results depend on the processing

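No member passed the adjusted threshold under any alternative run, in any tested cell type or in the contrast of B cells with CD4+ T cells. Of 20 pairs of a member and a cell type, 16 kept their sign under every alternative other than leaving out a mouse, and 12 kept it under all. The exceptions had values between -0.08 and 0.20, and the cause was not tested. In CD4+ T cells, equal cell numbers per mouse gave -0.025 for Mif, 0.066 for Il16 and -0.035 for Flt3l, and the plain UMI total gave -0.044 for Mif. In plasmablasts Ltb was 0.0069 with no filter on low counts and 0.10 with equal cell numbers. Leaving out each mouse gave -0.25 to 0.98 for Lta and -0.22 to 0.10 for Il16 in B cells, -0.17 to 0.22 for Mif, -0.21 to 0.19 for Il16 and -0.078 to 0.30 for Flt3l in CD4+ T cells, -0.17 to 0.010 for Il16 and -0.062 to 0.42 for Flt3l in CD8+ T cells, and -0.21 to 0.18 for Ltb in plasmablasts. Leaving out each mouse moved Ltb between 0.45 and 0.62 in CD8+ T cells, 0.19 and 0.34 in B cells and 0.18 and 0.31 in CD4+ T cells.

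The number of all genes called moved more. With no filter on low counts it was 13 in plasmablasts, 11 in each of CD8+ T cells and CD4+ T cells and 21 in B cells. Leaving out each mouse gave 3 to 13 genes in plasmablasts, 10 to 16 in B cells, 6 to 16 among CD8+ T cells and 0 among CD4+ T cells, with a lone mouse assumed to vary like the other group. Equal cell numbers gave 1 gene in B cells and 3 in plasmablasts. Thinning gave 3 in CD4+ T cells and 4 in plasmablasts. The plain UMI total gave 0 in CD8+ T cells and 3 in plasmablasts, DESeq2 0 in both, limma-voom 1 in CD8+ T cells, and leaving out cells with markers of other cells 5 in plasmablasts and 1 for CD8+ T cells. Thinning moved 2 of 35 levels by more than the spread over mice, Tgfb1 to 49.9 CPM and Flt3l to 17.9 CPM in cells labelled NK, both from few UMIs. Lta and Tnf had too few UMIs for a contrast in most cell types. No paired analysis was possible because no number in the labels joins 1 treated with 1 untreated mouse. The names of treated mouse 1 and both untreated mice share an ending that the name of treated mouse 2 lacks and whose meaning the labels do not give. A term for it would leave treated mouse 2 out of the contrast, and without that mouse Ltb was 0.45 in CD8+ T cells.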
